A study of Mus musculus with 4 samples.

Results

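The genes described here encode RNA-binding proteins that recognise short sequences in mRNAs and either bring deadenylases to the transcript or oppose its decay. They were taken by gene symbol from a written list of AU-rich element, Roquin and Pumilio proteins, namely *Zfp36*, *Zfp36l1*, *Zfp36l2*, *Hnrnpd*, *Khsrp*, *Rc3h1*, *Rc3h2*, *Pum2* and *Elavl1*. All 9 were among the 54920 genes listed in the count tables, and all 9 were among the 23952 genes with enough reads to be tested. Total RNA was sequenced from ID4-EGFP+ spermatogonia, which were sorted by flow cytometry from mouse testes at postnatal day 8. The comparison asks how mRNA levels in these cells differ when *Cnot3*, a subunit gene of the CCR4-NOT deadenylase complex, is deleted. Control mice were Cnot3flox/flox;Id4-eGfp and carried no Cre, and *Cnot3*-cKO mice were Cnot3flox/flox;Ddx4-creER;ID4-EGFP. Mice of both groups were given 4-hydroxytamoxifen from day 1 to day 3 after birth. The Cre is driven in germ cells only, so other cells that pass the sort keep *Cnot3*. The labels call the controls wild-type, although they carry the floxed alleles. Each group had 2 libraries, with 40957899 and 43378493 counted reads in the controls and 22192964 and 28019626 in the *Cnot3*-cKO. The paper's legend for the volcano plot of this RNA-seq calls its replicates biological, although the number it gives is not the 2 libraries of each group used here. The labels do not say that the libraries came from separate animals, so p-values measure the spread between these samples, which may be technical.

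ZFP36 family proteins bind AU-rich elements in 3′ UTRs and recruit CCR4-NOT, which shortens the poly(A) tail and starts decay. HNRNPD (AUF1) and KHSRP (KSRP) also bind AU-rich elements and promote decay, Roquin proteins bind stem-loops, and PUM2 binds the Pumilio element, while ELAVL1 (HuR) binds AU-rich and U-rich stretches and stabilises many of the same mRNAs. In the testis, Pumilio proteins and ELAVL1 are known for their roles in germ cell development.

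Several of these genes carry in their own 3′ UTR the letters that the proteins bind, and these sites are shown because they are the sequences the group of proteins is defined by. The nonamer bound by ZFP36 proteins, TTATTTATT (UUAUUUAUU in RNA), and the Pumilio element, TGTANATA (UGUANAUA in RNA, where N is any base), were searched on the transcript strand in the longest annotated 3′ UTR of each gene, and overlapping matches were all counted. Capitals mark the match, and 6 bases are shown on each side.
Zfp36 nonamer: acgactTTATTTATTgtatta
Zfp36l1 nonamer: gttggaTTATTTATTttagaa
Zfp36l2 nonamer: tttaacTTATTTATTatcttg
Rc3h1 nonamer: tactcaTTATTTATTgagatg
Rc3h2 nonamer: gacattTTATTTATTttactc
Elavl1 nonamer 1: tgaaaaTTATTTATTtattta
Pum2 Pumilio element 1: tagagaTGTATATAgaatta
Pum2 Pumilio element 2: cagaatTGTATATActtata

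All sites lie in 3′ UTR exons of GRCm38. The *Zfp36* match is at chr7:28376961-28376969 on the reverse strand, the *Zfp36l1* match at chr12:80108177-80108185 on the reverse strand and the *Zfp36l2* match at chr17:84184924-84184932 on the reverse strand. Each of these 3 genes had 1 match, so every member of the ZFP36 family described here holds the nonamer of its own family. The Roquin genes had 1 match each, in *Rc3h1* at chr1:160970053-160970061 on the forward strand and in *Rc3h2* at chr2:37373297-37373305 on the reverse strand. *Elavl1* had 8 matches, most of them overlapping, near the end of a 3′ UTR of 4218 bases, and the one shown is at chr8:4285798-4285806 on the reverse strand. *Pum2* holds 2 Pumilio elements, at chr12:8750165-8750172 and chr12:8750418-8750425 on the forward strand. *Rc3h1* held a further 2 Pumilio elements and *Rc3h2* held 1.

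No nonamer was found in the longest 3′ UTR of *Hnrnpd*, *Khsrp* or *Pum2*, which says only that these letters are not in that stretch. Of the 15675 tested genes with an annotated 3′ UTR, 7.89% held the nonamer and 25.3% held the Pumilio element. The share with a nonamer was 4.15% among genes with a 3′ UTR of 500 to under 1000 bases, the range of *Zfp36* (774 bases), and 8.34% at 1000 to under 2000 bases, the range of *Zfp36l1* (1835 bases) and *Zfp36l2* (1822 bases). It was 23.9% at 4000 bases or more, the range of the Roquin genes and *Elavl1*. A count of 8 or more nonamers, as in *Elavl1*, was found in 11 of the 15675 genes. At 2000 to under 4000 bases, the range of *Pum2* (2861 bases), 42.7% of genes held a Pumilio element and 14% held 2 or more. At 4000 bases or more, the range of the Roquin genes, 64.3% held a Pumilio element and 34.1% held 2 or more. A match describes the sequence and is not evidence of binding.

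The deleted gene was measured first, as a check of the labels. *Cnot3* had 2362 and 2114 reads in the controls and 435 and 571 in the *Cnot3*-cKO, or 58.6, 50.2, 19.2 and 19.9 CPM, the reads scaled to a common library size. Both *Cnot3*-cKO libraries lay far below both controls, at a log2 fold change of -1.48 (standard error 0.13; edgeR quasi-likelihood F test, Benjamini-Hochberg adjusted p = 1.48e-05). Counts per gene do not separate reads of the deleted allele from reads of an intact one. In these bulk samples, fewer cells of a type and less RNA per cell cannot be told apart.

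Among the proteins that bind AU-rich elements and promote decay, *Khsrp* and *Zfp36l2* fell, *Zfp36* had higher values in the *Cnot3*-cKO without passing the test, and *Zfp36l1* and *Hnrnpd* had overlapping groups. *Khsrp*, whose product binds AU-rich elements through KH domains, was measured at 118 and 118 CPM in the controls and at 87.1 and 84.7 CPM in the *Cnot3*-cKO libraries. The control libraries were nearly equal and both *Cnot3*-cKO libraries lay below them. The log2 fold change was -0.46 (standard error 0.09, 95% interval -0.65 to -0.27; edgeR quasi-likelihood F test, Benjamini-Hochberg adjusted p = 0.00329), or 0.727 of the control level. *Khsrp* had the smallest p of the 9 genes and was called in every fit that left out 1 library.

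*Zfp36l2*, the most abundant ZFP36 family mRNA in these cells, stood at 81.8 and 70.7 CPM in the controls and at 57.8 and 61.1 CPM in the *Cnot3*-cKO. The groups did not overlap. Its log2 fold change was -0.36 (standard error 0.11; edgeR quasi-likelihood F test, Benjamini-Hochberg adjusted p = 0.0335). The call was lost without control replicate 1 (adjusted p = 0.0893) and when either *Cnot3*-cKO library was left out (0.190 without replicate 1 and 0.0877 without replicate 2).

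*Zfp36*, which encodes tristetraprolin and is itself an immediate early gene in many cells, was the only one of the 9 with higher values in the *Cnot3*-cKO. It had 513 and 409 reads in the controls and 370 and 462 in the smaller *Cnot3*-cKO libraries, which came to 12.7, 9.72, 16.3 and 16.1 CPM. Each *Cnot3*-cKO library exceeded each control, and the controls were further apart than the *Cnot3*-cKO libraries. The log2 fold change of 0.53 (standard error 0.18, 95% interval 0.14 to 0.93) missed the threshold (edgeR quasi-likelihood F test, Benjamini-Hochberg adjusted p = 0.0575). It passed without control replicate 1 (0.72, adjusted p = 0.00467) and was 0.34 without control replicate 2 (adjusted p = 0.275).

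*Zfp36l1*, the remaining family member, was at 42.1 and 32.1 CPM in the controls and at 37.4 and 36.7 CPM in the *Cnot3*-cKO. Both *Cnot3*-cKO libraries lay between the controls, and the 95% interval of the log2 fold change ran from -0.31 to 0.30 around an estimate of -0.0024, whose sign turned under several scalings. *Hnrnpd* was at 84.9 and 64.9 CPM in the controls and at 73.8 and 67.6 CPM in the *Cnot3*-cKO. Here too the *Cnot3*-cKO libraries lay between the controls (95% interval -0.36 to 0.19). Its estimate was -0.08, and -0.10 less the median of all tested genes with scaling to pan-germ cell genes.

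**Figure D1:**
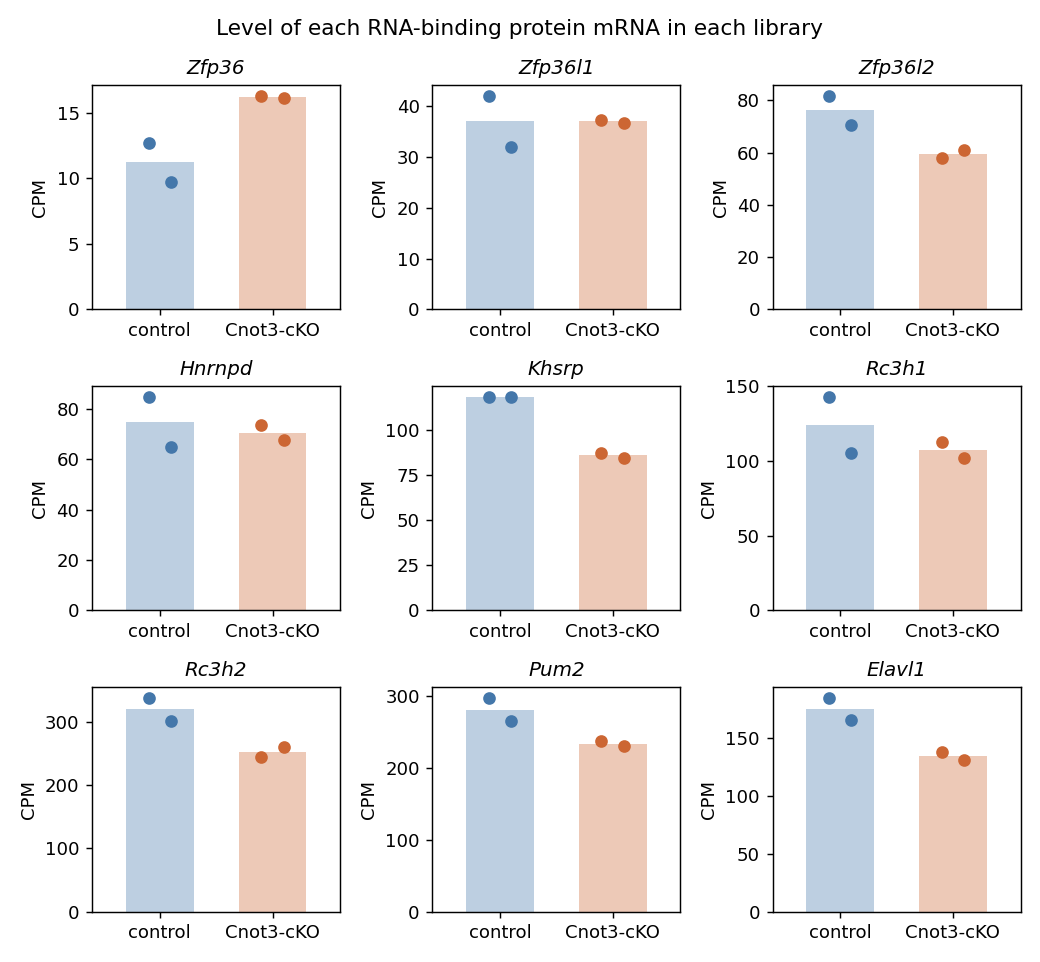
Levels of the 9 mRNAs in CPM on a linear axis from 0, with 1 panel for each gene; points are libraries and bars are means of 2 libraries. Both *Cnot3*-cKO points lie above both controls for *Zfp36* and below both for *Zfp36l2*, *Khsrp*, *Rc3h2*, *Pum2* and *Elavl1*.

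The ZFP36 family was also compared within each library, which does not depend on how libraries are scaled; these ratios were chosen after the values were seen. *Zfp36* made up 8.97% and 8.35% of the family's CPM per kilobase of exon in the controls and 14.01% and 13.58% in the *Cnot3*-cKO. Its annotated exons joined cover its whole gene span, which may make its share too low in every library. *Zfp36l2* made up 56.6% and 59.7% in the controls and 48.8% and 50.6% in the *Cnot3*-cKO. The share of *Zfp36l1* was 34.4% and 32.0% in the controls and 37.2% and 35.8% in the *Cnot3*-cKO. In both *Cnot3*-cKO libraries the part of *Zfp36* was larger, and that of *Zfp36l2* smaller, than in either control. The ratio of *Zfp36* to *Zfp36l2* reads was 0.156 and 0.138 in the controls and 0.282 and 0.264 in the *Cnot3*-cKO, a rise of 1.86 times in the mean ratio (SD 0.0128 in controls and 0.0131 in *Cnot3*-cKO, n = 2 per group). For a ratio like this, the smallest two-sided p that exact permutation allows with 2 libraries in each group is 0.333, which was the p here, so this test could not have shown a difference.

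The Roquin genes encode paralogous proteins with a RING finger and a ROQ domain. *Rc3h2* was at 338 and 301 CPM in the controls and at 244 and 261 CPM in the *Cnot3*-cKO, and its groups did not overlap. It fell by 0.34 on the log2 scale (standard error 0.09; edgeR quasi-likelihood F test, Benjamini-Hochberg adjusted p = 0.0148), a call lost without *Cnot3*-cKO replicate 1 (adjusted p = 0.152). *Rc3h1* was at 143 and 105 CPM in the controls and at 113 and 102 CPM in the *Cnot3*-cKO. One control lay above and one inside the range of the *Cnot3*-cKO libraries. The log2 fold change of *Rc3h1* was -0.21 (95% interval -0.49 to 0.07, adjusted p = 0.294), and control replicate 2 decided its call. Without that library it was -0.42 (adjusted p = 2.15e-04), and without control replicate 1 it was 0.01 (adjusted p = 0.952).

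*Pum2*, a Pumilio protein gene, was at 297 and 265 CPM in the controls and at 237 and 230 CPM in the *Cnot3*-cKO. The groups did not overlap, and the log2 fold change was -0.27 (standard error 0.09; edgeR quasi-likelihood F test, Benjamini-Hochberg adjusted p = 0.0437). This call was the weakest of those made, and it was lost without control replicate 1 (adjusted p = 0.0655) and when either *Cnot3*-cKO library was left out (0.169 without replicate 1 and 0.249 without replicate 2).

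*Elavl1*, which encodes the protein of this group that stabilises AU-rich mRNAs, was at 184 and 165 CPM in the controls and at 138 and 131 CPM in the *Cnot3*-cKO. Both *Cnot3*-cKO libraries were lower than both controls. The log2 fold change was -0.38 (standard error 0.09, 95% interval -0.57 to -0.18; edgeR quasi-likelihood F test, Benjamini-Hochberg adjusted p = 0.0103), and the call was lost without *Cnot3*-cKO replicate 2 (adjusted p = 0.101). *Elavl1* therefore fell in the same direction as the decay-promoting *Khsrp* and *Zfp36l2*. In reads, *Elavl1* stood at 0.543 and 0.559 of the 5 decay-promoting AU-rich element genes together in the controls and at 0.506 and 0.492 in the *Cnot3*-cKO. Its paralog *Elavl2*, named after its values were seen, had a log2 fold change of -0.34 (adjusted p = 0.0268), a call lost without *Cnot3*-cKO replicate 1 (0.280), with library size alone (0.0638) and with scaling to pan-germ cell genes (0.268).

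Counted together, 5 of the 9 genes were lower at an adjusted p under 0.05 with no fold change limit, and 0 were higher. Among all tested genes 9.46% were lower and 11.1% were higher by this rule. With the stricter rule of the study, a fold change of over 2 at an adjusted p under 0.01, edgeR called 0 of the 9 in either direction, against 4.03% of all tested genes higher and 0.735% lower. At an unadjusted p under 0.05, edgeR gave 1 higher and 5 lower, where 17.4% of all tested genes were higher and 15.4% lower, and DESeq2 gave the same counts for the 9, beside 8.78% higher and 8.96% lower of the 39712 genes it was run on. DESeq2 called 0 of the 9 by the stricter rule and 5 lower at an adjusted p under 0.05, where the shares of those 39712 genes were 2.33% higher and 0.463% lower by the stricter rule and 5.57% higher and 6.30% lower by the other. Both *Cnot3*-cKO libraries lay below both controls for 5 genes and above them for 1, where the shares over all tested genes were 28.6% and 30.5%. The groups overlapped for 3 genes.

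These genes are more abundant than most, which bears on the comparison. Among the 8873 tested genes within their range of abundance, 19.9% were lower and 12.6% higher at an adjusted p under 0.05, and the median log2 fold change was -0.09, against 0.01 over all tested genes. The median of the 9 genes was -0.27, and 8 of the 9 estimates were negative, against 60.9% of the genes of like abundance and 49.2% of all tested genes. The 8 include *Zfp36l1* (-0.0024), whose sign turned in 7 of the 14 alternatives. The 9 genes were chosen with results known, so no test is given for them as a group.

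**Figure D2:**
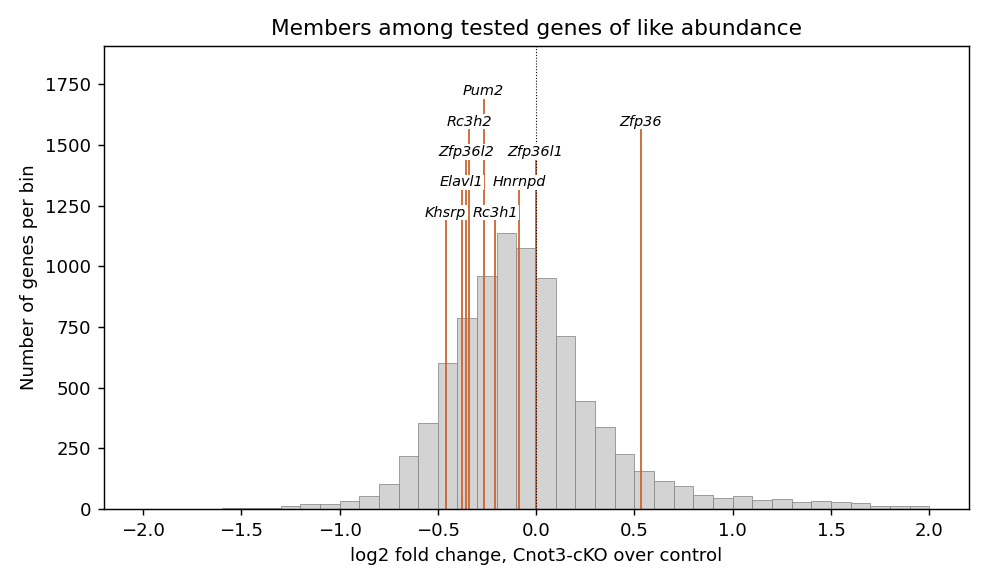
Histogram of log2 fold changes (*Cnot3*-cKO over control) of the 8873 tested genes as abundant as the 9 members, in bins 0.1 wide, with a line at each member; 3 genes lie below -2 and 14 above 2, outside the axis. Only *Zfp36* (0.53) lies to the right of 0, and *Khsrp* (-0.46) is furthest to the left of the 9.

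The fall of the 5 genes depended on the reference chosen for scaling. Scaled to 10 pan-germ cell genes, the libraries gave 0 of the 9 lower at an adjusted p under 0.05 by edgeR, with *Khsrp* at -0.30 (adjusted p = 0.0629), and *Zfp36* became the 1 gene higher (0.68, adjusted p = 0.0284). The reference was the summed reads of these 10 genes, so abundant ones such as *Dazl* weigh most. With the main scaling their median log2 fold change was -0.11, with 3 lower and 0 higher at an adjusted p under 0.05. The median over all tested genes became 0.16 with this scaling, a shift of 0.16, and the share of calls at an adjusted p under 0.05 that were higher went from 54% to 80.2%; it was 64.4% with library size alone. Relative to that median, *Khsrp* was at -0.47, *Elavl1* at -0.39, *Zfp36l2* at -0.37, *Rc3h2* at -0.35, *Pum2* at -0.28 and *Zfp36* at 0.52. The 5 lower genes had negative estimates in all 14 alternatives run, and the estimate of *Zfp36* was positive in all 14. *Khsrp* passed an adjusted p of 0.05 in 13 of the 14, *Rc3h2* and *Elavl1* in 12, *Zfp36l2* in 8, and *Pum2* and *Zfp36* in 7.

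**Figure D3:**
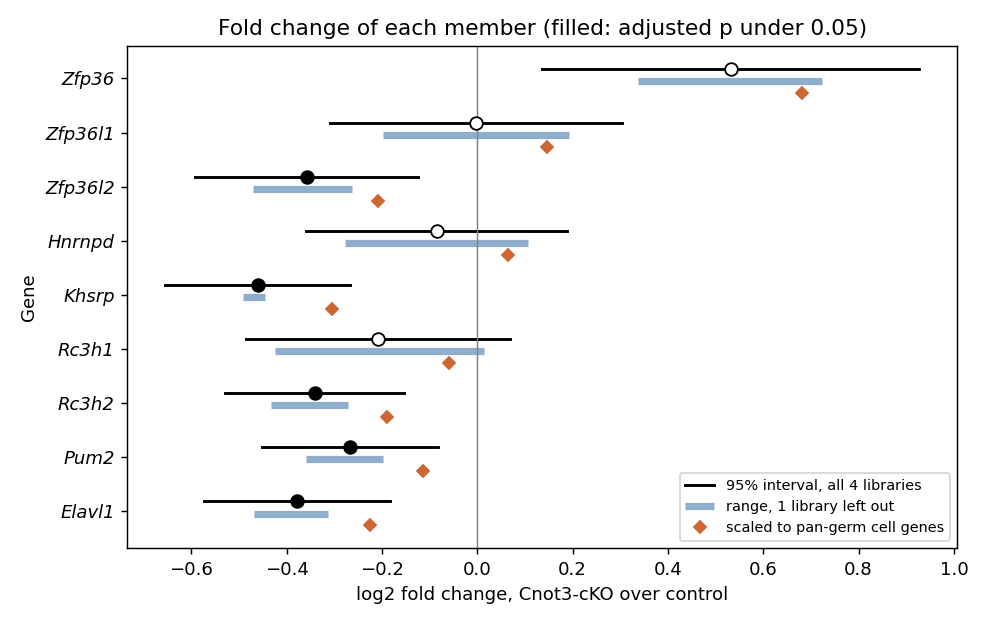
Log2 fold change of each gene, *Cnot3*-cKO over control, with its 95% interval from edgeR (black; filled points have an adjusted p under 0.05), the range when 1 library was left out (blue) and the value with libraries scaled to pan-germ cell genes (orange). This scaling shifts the median of all tested genes by 0.16, so the orange points lie to the right of the black ones by construction; less the median, *Zfp36l1* is at -0.02 and *Hnrnpd* at -0.10.

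The control libraries differed from each other in a part of these genes. Control replicate 1 was at least 1.3 times control replicate 2 for *Zfp36* (1.31), *Zfp36l1* (1.31), *Hnrnpd* (1.31) and *Rc3h1* (1.36), and this ratio was chosen after the values were seen. Of the 8873 genes of like abundance, 3.82% reached it. The other 5 genes ranged from 0.998 for *Khsrp* to 1.16 for *Zfp36l2*. These 4 genes are the ones that were not called, and 3 of them are the ones with overlapping groups. Between the *Cnot3*-cKO libraries 0 of the 9 genes reached that ratio, as did 1.27% of the genes of like abundance, too few to expect any among 9.

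On a scale per kilobase of exon, *Pum2* was the highest of the 9 in the controls, at 38.7 ± 3.13 CPM per kilobase (SD, n = 2), followed by *Khsrp* (27.4 ± 0.0424) and *Zfp36l2* (21.6 ± 2.23). *Elavl1* (16.9 ± 1.304) and *Rc3h2* (16.3 ± 1.31) overlapped each other. So did *Zfp36l1* (12.4 ± 2.38), *Rc3h1* (10.98 ± 2.36) and *Hnrnpd* (10.2 ± 1.92), and *Zfp36* was lowest at 3.24 ± 0.615. In the *Cnot3*-cKO the first 6 places were held in the same order, with *Elavl1* (13.0 ± 0.470), *Rc3h2* (12.9 ± 0.605) and *Zfp36l1* (12.4 ± 0.171) in places 4 to 6, where *Rc3h2* now overlapped both of its neighbours. *Zfp36* was again lowest, at 4.68 ± 0.0408. Exon lengths are those of all annotated exons joined, which lowers the value of genes with long, little used exons, such as *Rc3h2* with 19624 bases. The joined exons of *Zfp36*, 3470 bases, cover its whole gene span, so its value may be too low as well.

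The genes whose pattern over the 4 libraries was most like that of each ZFP36 family member were found by the Euclidean distance between centred log2 CPM, among 15518 genes. For *Zfp36* these were *Speg* (distance 0.0220) and *Atp8a1* (0.0403), for *Zfp36l1* they were *Gm49839* (0.0170) and *Isl1* (0.0186), and for *Zfp36l2* they were *Gm7334* (0.0154) and *Gm10010* (0.0269). *Atp8a1*, for example, was at 28.4 and 21.2 CPM in the controls and at 37.0 and 35.7 CPM in the *Cnot3*-cKO, and so shared with *Zfp36* the gap between the controls as well as the higher *Cnot3*-cKO values. The distance rests on 4 libraries, and the sign of *Gm49839* and *Isl1*, near 0 like that of *Zfp36l1*, turned under some alternatives.

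Other genes of the same machinery were counted by list. For this and the later lists, the shares of all tested genes at an adjusted p under 0.05 were 9.46% lower and 11.1% higher. Among the 8873 genes as abundant as the members they were 19.9% lower and 12.6% higher. By the stricter rule, 0.735% of all tested genes were lower and 4.03% higher. Of 16 tested genes for other AU-rich or U-rich element binding proteins, 4 were lower at an adjusted p under 0.05 and 0 higher, by edgeR; DESeq2 gave 3 and 0, and at an unadjusted p under 0.05 edgeR gave 7 and 0. *Celf1*, which binds GU-rich elements and promotes deadenylation, was at 306 and 298 CPM in the controls and at 199 and 205 CPM in the *Cnot3*-cKO (log2 fold change -0.58, standard error 0.08, adjusted p = 3.52e-04). *Ncl*, which encodes nucleolin, varied more within groups, at 1450, 998, 919 and 729 CPM (log2 fold change -0.57, standard error 0.15, adjusted p = 0.0151), and it was not called by DESeq2 (adjusted p = 0.154), with robust dispersions (0.249) or with scaling to pan-germ cell genes (0.117). It was at -0.29 without control replicate 1 and at -0.83 without control replicate 2. The count of lower genes was 2 without *Cnot3*-cKO replicate 1 and 6 without control replicate 1. Scaling to pan-germ cell genes left 1 lower.

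Of 21 tested genes for other adaptors that contact CCR4-NOT, 7 were lower and 1 higher at an adjusted p under 0.05, and 1 was lower by the stricter rule. That gene was *Nanos3*, an RNA-binding protein gene of the germline, at 16.1 and 16.9 CPM in the controls and at 7.72 and 8.03 CPM in the *Cnot3*-cKO (log2 fold change -1.07, standard error 0.17; edgeR quasi-likelihood F test, Benjamini-Hochberg adjusted p = 0.00119). Its fold change fell below 2 with library size alone and with scaling to pan-germ cell genes (-0.91), where 0 genes of this list passed the stricter rule. The single higher gene was *Cpeb2* (0.45, adjusted p = 0.0464), which was not called by DESeq2 or without *Cnot3*-cKO replicate 1. The count of higher genes in this list was 3 with library size alone, scaling to pan-germ cell genes, a filter at a mean count of 50 or the replicate block, and 2 without control replicate 1. With DESeq2 size factors that count was 0, so *Cpeb2* was not called there either. The list median was -0.10, against 0.01 over all tested genes.

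Of 10 genes for Regnase and MEX3 proteins, which are RNA-binding proteins with roles in decay and translation, 1 was higher and 1 lower by the stricter rule. *Mex3b* was at 8.32 and 9.82 CPM in the controls and at 18.4 and 18.2 CPM in the *Cnot3*-cKO (log2 fold change 1.01, standard error 0.17, adjusted p = 0.00152). *Mex3d* was at 28.0 and 41.9 CPM in the controls and at 11.9 and 18.0 CPM in the *Cnot3*-cKO (log2 fold change -1.22, standard error 0.22, adjusted p = 0.00189). These paralogs thus moved in opposite directions, both with groups that did not overlap. *Mex3b* lay close to the fold change limit and was not called by DESeq2 under the stricter rule, and was at 0.88 without control replicate 1 and at 0.997 without *Cnot3*-cKO replicate 1, while *Mex3d* was at -0.91 without control replicate 2 and at -0.97 without *Cnot3*-cKO replicate 1. Leaving out these libraries put the gene under the fold change limit and left its adjusted p under 0.01.

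Of 11 tested CCR4-NOT subunit genes, 3 were lower at an adjusted p under 0.05 and 1 was higher, and by the stricter rule only *Cnot3* was called. The count of lower subunit genes was 2 without *Cnot3*-cKO replicate 1 and 1 without replicate 2, and it was 1 with upper quartile scaling, library size alone, scaling to pan-germ cell genes or a filter at a mean count of 50. The count of higher ones was 0 without *Cnot3*-cKO replicate 1 and 2 without control replicate 1. Scaling to pan-germ cell genes gave 2 higher subunit genes. Of the genes that encode kinases, phosphatases and 14-3-3 proteins that act on ZFP36, 3 of 15 were higher and 3 lower at an adjusted p under 0.05. Here the count of higher genes was 1 without *Cnot3*-cKO replicate 1 and 2 without control replicate 1, and the count of lower genes was 5 without control replicate 2, and it was 2 and 1 when replicates 1 and 2 of the *Cnot3*-cKO were left out in turn. Scaling to pan-germ cell genes gave 4 higher and 1 lower, and upper quartile scaling or library size alone gave 3 higher and 2 lower. *Mapkapk3*, a kinase activated by p38, was the only one past the stricter rule (2 genes passed it without control replicate 2), at 6.11 and 6.37 CPM in the controls and at 14.04 and 13.09 CPM in the *Cnot3*-cKO (log2 fold change 1.12, standard error 0.19; edgeR quasi-likelihood F test, Benjamini-Hochberg adjusted p = 0.00135). *Mapk14*, which encodes p38α itself and was named after its values were seen, was at 150 and 143 CPM in the controls and at 113 and 99.5 CPM in the *Cnot3*-cKO (log2 fold change -0.47, adjusted p = 0.00431).

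Known target mRNAs of the ZFP36 family were then examined. Of 20 listed, 12 had enough reads to be tested, and 4 of these rose at an adjusted p under 0.05 (*Plaur*, *Fos*, *Vegfa* and *Notch1*), 2 of them by the stricter rule. Over all tested genes the shares that were higher were 11.1% and 4.03% by these rules. The count at an adjusted p under 0.05 was 6 without *Cnot3*-cKO replicate 1 and 8 with scaling to pan-germ cell genes. *Fos*, a transcription factor gene with a classic AU-rich element, was at 14.5 and 16.0 CPM in the controls and at 32.9 and 48.3 CPM in the *Cnot3*-cKO (log2 fold change 1.41, standard error 0.17, adjusted p = 1.87e-04). *Plaur*, the urokinase receptor gene, was at 0.596 and 0.618 CPM in the controls and at 3.27 and 2.62 CPM in the *Cnot3*-cKO (log2 fold change 2.27, standard error 0.39, adjusted p = 0.00165). In 9 of the 12 the groups did not overlap and the *Cnot3*-cKO was higher, where the share over all tested genes was 30.5%. By edgeR or DESeq2, 0 were lower at an adjusted p under 0.05, as by edgeR at an unadjusted p under 0.05. *Tnf*, *Ptgs2* and *Lif* are among the 9. They passed the expression filter only through the *Cnot3*-cKO libraries, so the filter decided in part that they count as higher. The list median was 1.11, against 0.01 over all tested genes. It includes *Tnf*, *Ptgs2* and *Lif*, so the filter raised this median in part as well. Several members were low, such as *Ptgs2* at 0.248, 0.333, 0.839 and 1.26 CPM, controls first. The 8 genes not tested were mostly cytokine genes, and the highest value among them was 0.838 CPM, for *Ccl3* in *Cnot3*-cKO replicate 2.

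Known targets of Roquin and Pumilio proteins were counted in the same way, and the lists were not tested against each other. Of 7 tested Roquin targets edgeR called 0 at an adjusted p under 0.05, as did DESeq2, and 2 were higher at an unadjusted p under 0.05. These were *Tnf* (0.149, 0.214, 0.706 and 0.838 CPM; log2 fold change 2.07, adjusted p = 0.0571) and *Ier3* (1.94, 2.35, 3.49 and 4.19 CPM; log2 fold change 0.84, adjusted p = 0.0617), which are also among the ZFP36 targets. *Ier3* passed an adjusted p of 0.05 with library size alone (0.0470), a filter at a mean count of 50 (0.0478) and the replicate block (0.0497), and both passed with scaling to pan-germ cell genes (*Ier3* at 0.0363 and *Tnf* at 0.0488), so that 0 became 1 or 2. *Tnf* passed the expression filter only through its *Cnot3*-cKO values. Of 6 Pumilio targets, 2 were higher and 1 lower at an adjusted p under 0.05. *Atxn1* was at 10.2 and 6.80 CPM in the controls and at 19.7 and 17.2 CPM in the *Cnot3*-cKO (log2 fold change 1.12, standard error 0.21, adjusted p = 0.00246), and was at 0.85 without control replicate 2. *Ccnb1* was at 0.56 and *Mapk14* at -0.47. The count of lower Pumilio targets was 0 without *Cnot3*-cKO replicate 2 and with scaling to pan-germ cell genes.

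**Figure D4:**
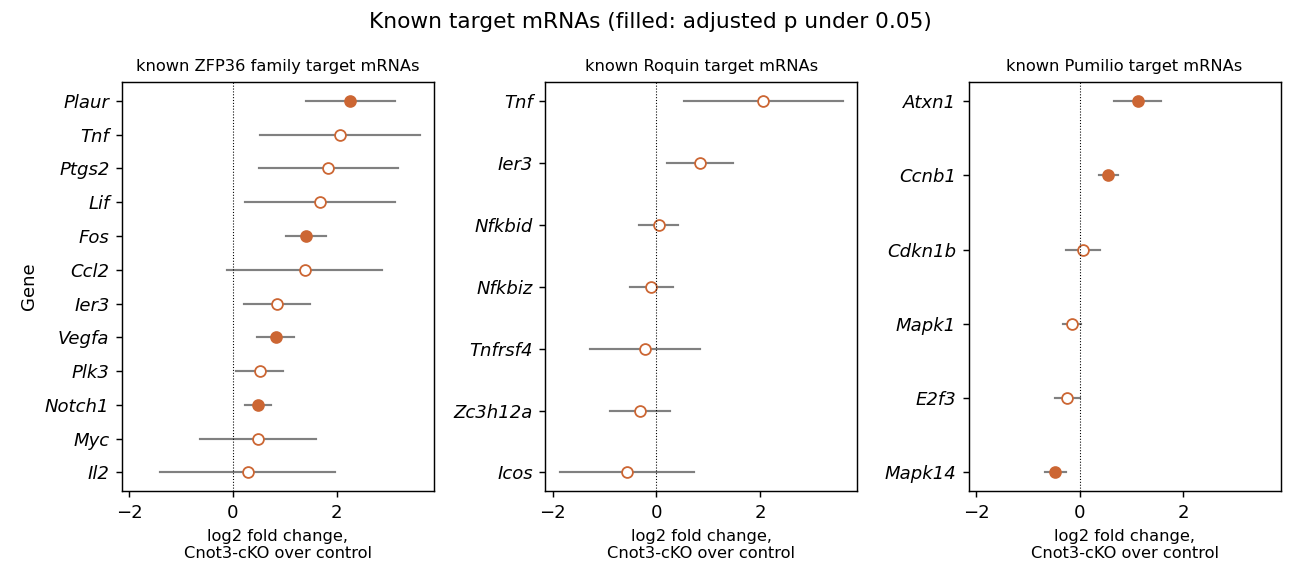
Log2 fold changes, *Cnot3*-cKO over control, of the tested genes among known targets of ZFP36, Roquin and Pumilio proteins; lines are 95% intervals from edgeR and filled points have an adjusted p under 0.05. All 12 ZFP36 targets lie to the right of 0, 4 of them filled, while Roquin and Pumilio targets lie on both sides. *Tnf*, *Ptgs2* and *Lif* passed the expression filter only through the *Cnot3*-cKO libraries, so the filter decided their side in part.

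Values of 2 other kinds of gene lie beside the ZFP36 targets. Of 13 immediate early and dissociation response genes, a list that includes heat shock genes, 4 rose by the stricter rule (*Fos*, *Fosb*, *Jun* and *Junb*) and 6 at an adjusted p under 0.05. Without *Cnot3*-cKO replicate 2 these counts were 3 and 4, *Junb* went from 2.30 to 1.62 (adjusted p = 0.0353) and *Fos* from 1.41 to 1.10. Their summed level was 157 and 148 CPM in the controls and 217 and 256 CPM in the *Cnot3*-cKO, and *Egr1*, the most abundant, was not called (0.28, adjusted p = 0.246). *Fosb* was at 6.26, 7.46, 18.6 and 28.8 CPM, *Jun* at 6.38, 6.39, 15.1 and 16.9 CPM and *Junb* at 0.646, 0.666, 2.03 and 4.399 CPM, controls first. *Zfp36* is itself an immediate early gene in many cells, and *Fos* and *Ier3* of this list are also among the ZFP36 targets.

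Markers of cells other than spermatogonia were also higher in the *Cnot3*-cKO. Of 16 Sertoli cell genes 14 rose by the stricter rule, and their summed level was 475 and 480 CPM in the controls and 1367 and 1345 CPM in the *Cnot3*-cKO, with *Clu* the most abundant. Of 9 macrophage genes 8 rose, with sums of 229, 142, 519 and 427 CPM and *Mrc1* the most abundant, and the count was 4 without control replicate 2. Of 5 tested Leydig cell genes 4 rose, with sums of 368, 322, 831 and 896 CPM and *Hsd3b1* the most abundant, while *Insl3* had 0 reads in all 4 libraries. No Sertoli or macrophage gene of the lists was at 0 in all libraries. Endothelial genes gave 2 of 7 (*Pecam1* at 1.18 and *Kdr* at 1.17 on the log2 scale), and 1 without *Cnot3*-cKO replicate 1, where *Kdr* was at 0.99. By the stricter rule peritubular myoid genes gave 0 of 7 in edgeR and in DESeq2, with 1 higher at an adjusted p under 0.05 and at an unadjusted p under 0.05 (*Acta2* at 0.94, adjusted p = 0.00828), and *Des*, with the next smallest p, was at 0.73. *Acta2* passed the stricter rule with library size alone (1.01), scaling to pan-germ cell genes (1.09), thinning (1.04) and without *Cnot3*-cKO replicate 1 (1.12), and was not called without *Cnot3*-cKO replicate 2 (adjusted p = 0.0820).

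Germ cell genes were present in all libraries. The 10 pan-germ cell genes summed to 5547, 6027, 5071 and 5305 CPM, with *Dazl* the most abundant, and 3 were lower at an adjusted p under 0.05, including *Piwil2* (-0.44) and *Piwil4* (-0.45). That count was 2 without either *Cnot3*-cKO library, and without control replicate 2, 3 of the 10 were higher, where 0 had been; at an unadjusted p under 0.05 edgeR gave 0 higher, and DESeq2 gave 0 at an adjusted p under 0.05. Of 12 spermatogonial stem cell genes 2 rose by the stricter rule, *Id4* (1.04) and *Eomes* (1.39), and 5 were higher and 2 lower at an adjusted p under 0.05. The other higher genes by the edgeR quasi-likelihood F test were *Gfra1* (0.90, adjusted p = 3.68e-05), *Bcl6b* (0.65, adjusted p = 0.00257) and *Etv5* (0.54, adjusted p = 0.00452). The lower genes were *Zbtb16* (-0.82, adjusted p = 1.93e-04), the most abundant of the list, and *Sall4* (-0.42, adjusted p = 0.00656), both named after their values were seen. The count of lower genes was 1 without *Cnot3*-cKO replicate 1 or with scaling to pan-germ cell genes, and 3 without replicate 2 of either group. Without *Cnot3*-cKO replicate 2 neither *Id4* (0.84) nor *Eomes* (adjusted p = 0.0210) passed the stricter rule, and without control replicate 2 *Id4* was at 0.99. The part that the immediate early and dissociation response genes and the markers of other cells play in the values of *Zfp36*, its targets and the 5 lower genes was not tested.

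Genes with and without the motifs were compared across the whole table as a description. The 1236 genes with a nonamer had a median log2 fold change of -0.05, against 0.01 over the 15675 genes with a 3′ UTR. The 284 genes with 2 or more nonamers had a median of 0.01, and 15.8% of them were lower at an adjusted p under 0.05. By the stricter rule 4.94% of the 1236 nonamer genes were higher and 1.62% lower, against 5.56% and 0.957% of all genes with a 3′ UTR. At an adjusted p under 0.05, 17.9% of the nonamer genes were lower, against 13.2%. Their 3′ UTRs were longer, with a median of 2361 bases against 1036 in genes without the nonamer. The 3968 genes with a Pumilio element had a median of -0.03, and 17.7% of them were lower.

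Length itself went with the share of lower genes. That share was 6.90% among genes with a 3′ UTR under 500 bases, 10.4% at 500 to under 1000, 14.5% at 1000 to under 2000, 18.2% at 2000 to under 4000 and 23.5% at 4000 bases or more. At 2000 to under 4000 bases it was 18.4% with the nonamer and 18.2% without it, and at 4000 bases or more it was 24.3% and 23.2%. At 500 to under 1000 bases, the range of *Zfp36*, it was 8.53% with the nonamer and 10.5% without, and at 1000 to under 2000 bases, the range of *Zfp36l1* and *Zfp36l2*, 16.2% and 14.3%. For the Pumilio element the share was 19.6% with and 17.2% without it at 2000 to under 4000 bases, and 21.6% with and 26.8% without it at 4000 bases or more. Under 500 bases the shares were 11.7% of 60 genes with the nonamer and 6.83% without. The share was higher with the Pumilio element than without it in every length range but the longest. Higher genes at an adjusted p under 0.05 made up 11.7% with the nonamer and 14.3% without it under 500 bases, 18.6% with the nonamer and 14.8% without it at 500 to under 1000 bases, 11.3% and 15.5% at 1000 to under 2000 bases, 13.7% and 14.7% at 2000 to under 4000 bases and 16.6% and 15.3% at 4000 bases or more. By the stricter rule, higher genes with and without the nonamer made up 1.67% and 5.50% under 500 bases, 8.53% and 4.87% at 500 to under 1000, 3.35% and 6.02% at 1000 to under 2000, 4.49% and 5.80% at 2000 to under 4000 and 6.42% and 6.28% at 4000 bases or more. At an adjusted p under 0.05, higher genes with and without the Pumilio element made up 13.8% and 14.3% under 500 bases, 16.8% and 14.6% at 500 to under 1000, 15.5% and 15.0% at 1000 to under 2000, 14.9% and 14.3% at 2000 to under 4000 and 18.4% and 10.7% at 4000 bases or more. These differences were not tested. Of the 5 lower genes described here, *Zfp36l2*, *Rc3h2* and *Elavl1* hold the nonamer and *Khsrp* and *Pum2* do not.

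**Figure D5:**
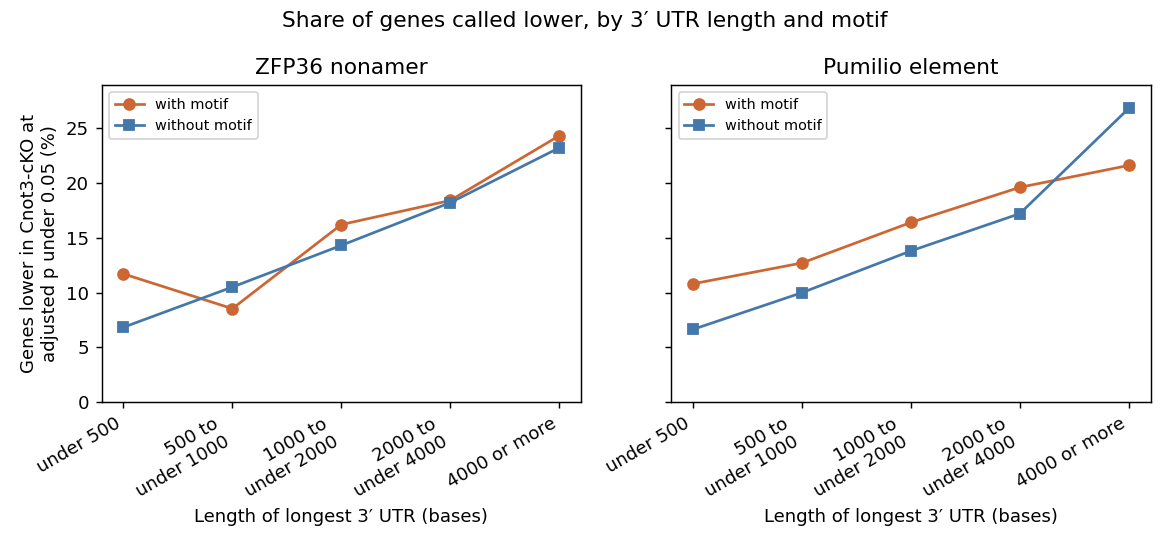
Percentage of tested genes that were lower in the *Cnot3*-cKO at an adjusted p under 0.05, by length of the longest 3′ UTR, for genes with (orange) and without (blue) the ZFP36 nonamer or the Pumilio element. The share without the nonamer rises with each step in length, from 6.83% to 23.2%, while the share with it dips at 500 to under 1000 bases (8.53%), and the 2 lie close together from 2000 bases.

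Some of these genes share exonic sequence with a gene on the opposite strand. The kit kept the strand, but whether the counting used it is not given in the sources used here, nor how reads that match several genes were treated. *Ccl25*, which overlaps *Elavl1*, had 1239, 854, 446 and 563 reads, beside 7424, 6951, 3124 and 3752 for *Elavl1*. *Gm44710*, opposite *Zfp36*, had 27, 33, 17 and 11 reads, *Gm17949*, opposite *Khsrp*, had 38, 39, 16 and 27, and *Gm17092*, opposite *Hnrnpd*, had 111, 97, 48 and 82. These partners had fewer reads than the genes they overlap in every library. Partners of *Zfp36l1* and *Zfp36l2* were not matched by symbol in the count tables; the paper's methods name a later GENCODE release for the counts than the one used here, so their symbols may differ.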

How the data were processed

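The authors deposited unnormalized read counts per gene symbol for each library. Their notes and methods name STAR, the mm10 build and featureCounts with a GENCODE annotation. Counts were compared between *Cnot3*-cKO and control with edgeR 4.0.16 in R 4.3.3, using TMM scaling, the default expression filter, the quasi-likelihood F test and Benjamini-Hochberg adjustment over 23952 genes. Standard errors are the log2 fold change divided by the square root of F. CPM used TMM-scaled library sizes. With 3 counts as the floor, the libraries reach 0.0713 to 0.132 CPM. Floors and intervals cover counting error and fitted spread only. DESeq2 1.42.0 was an alternative, beside other scalings, filters, dispersions, a replicate block, thinning and leaving out each library. The procedure was tested on simulated counts. Gene models and 3′ UTRs came from GENCODE M21 on GRCm38, matched by symbol for 23400 tested genes. Figures were drawn in Python 3.11.15 with matplotlib 3.10.9.

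The members and lists were chosen with earlier results of these data known. Named genes were taken from the 9 members, *Cnot3*, the genes of each list past an adjusted p of 0.01 and a fold change of 2 or, where there are none, the 2 with the smallest p, and the 2 genes most like each ZFP36 family member at a mean log2 CPM of at least 1. *Elavl2*, *Mapk14*, *Cpeb2*, *Zbtb16*, *Sall4*, *Gfra1*, *Bcl6b*, *Etv5*, *Vegfa*, *Notch1*, *Ccnb1*, *Ptgs2*, *Ccl3*, *Insl3*, *Dazl*, *Egr1* and the overlapping genes were named after their values were seen. Of the Sertoli, Leydig and macrophage genes that pass these limits, only the most abundant of each list over the 4 libraries is named. After the results were known, 1 gene was taken out of the lists and is not reported here, so list counts and medians are given without it. Proteins and the study's other experiments were not analysed here.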

Additional observations from a re-analysis of the deposited data

How the results depend on the processing

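*Cnot3* was lower and called in all 14 alternatives, from -1.59 to -1.33 on the log2 scale, and no alternative put any of the 9 genes past an adjusted p of 0.01 with a fold change of over 2. At an adjusted p under 0.05 with no fold change limit, the count of higher genes among the 9 went from 0 to 1, in each case *Zfp36*, with library size only (1), scaling to pan-germ cell genes (1), robust dispersions (1), the replicate block (1), a filter at a mean count of 50 (1) and thinning to the smallest library (1), and ranged from 0 to 1 as each library was left out. Thinning was chosen after seeing the data. The count of lower genes went from 5 to 3 with upper quartile scaling, 3 with library size only and 0 with pan-germ cell scaling, and ranged from 2 to 6 as each library was left out. *Zfp36l1* turned from -0.0024 to 0.0324 with upper quartile scaling, 0.0618 with library size only, 0.146 with pan-germ cell scaling, 0.0275 with a mean count of at least 50 and 0.0111 with the replicate block, and ranged from -0.198 to 0.192 as each library was left out. *Hnrnpd* turned to 0.0648 with pan-germ cell scaling and ranged from -0.277 to 0.106, and *Rc3h1* ranged from -0.425 to 0.0142. *Gm49839* turned to -0.0123 with no filter and -0.0084 with DESeq2 (range -0.181 to 0.21), and *Isl1* to -0.0035 with DESeq2 size factors, -0.0209 with no filter and -0.0169 with DESeq2 (range -0.198 to 0.211). Without 1 library, the lone library of its group is assumed to vary like the others. For each of these shifts the cause was not tested.

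For the other 55 genes named by rule or as a paralog, 734 of 767 values over the alternatives were on the same side of an adjusted p of 0.05 with the same sign, 14 lost it, 10 gained it and 9 changed sign. The replicate numbers join libraries by number alone: over 16437 genes, the correlation between the libraries numbered 1, each less the mean of its group, was 0.0642, and with the replicate block the number of lower genes among the 9 was 5. The nonamer genes' median was -0.05 when a match in any annotated 3′ UTR of a gene was counted, and -0.01 with the pentamer ATTTA in place of the nonamer. Depth limits the low targets such as *Tnf*, with 6, 9, 16 and 24 reads.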
